A study of Mus musculus with 12 samples.

Results

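The crypt stem and progenitor genes described here are 9 genes that mark the base of the intestinal crypt, taken by symbol without regard to their values: Lgr5, Ascl2, Prom1, Smoc2, Ephb2, Ephb3, Lrig1, Slc12a2 and Cd44. Of these 9, 8 were listed in at least 1 library, among 12098 genes listed in all, and Cd44 was listed in none. Promoter methylation had been measured by reduced representation bisulfite sequencing, which cuts DNA with MspI at CCGG, keeps a size band rich in CpG and shows unmethylated cytosine as thymine. Colon epithelial cells of C57BL/6 mice kept on chow were the source of the DNA. In 3 induced mice the DNA methyltransferase Dnmt3b, an enzyme that methylates previously unmethylated CpG, was switched on by doxycycline, given at 0.5 g/l in drinking water over 3 months. The 3 control mice drank regular water, so the drug and the enzyme were not separated. The labels used here give no age or sex, no name or promoter of a transgene, and no statement of whether control mice carried one. Fragments of 40 to 120 nt (short fraction) and of 120 to 220 nt (long fraction) were sequenced separately from each mouse, so there were 12 libraries. A level is the mean methylation of a gene's CpGs at its RefSeq promoter in percent, and a difference is given in percentage points.

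The crypt is a pocket of epithelium whose base holds the stem cells that renew the gut lining. Wnt signals amplified by R-spondins keep these cells dividing, and their loss as cells climb the wall goes with differentiation. Methylation of a CpG-rich promoter usually goes with silencing of the gene, and promoters in use are mostly free of it. Promoter methylation is not expression, and no expression was measured here, so the levels say nothing of how many stem cells the mice had or how active these genes were.

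The libraries listed 10358 to 10838 genes (short) and 7278 to 8108 genes (long), and the number of reads behind a level is unknown. All 8 genes were listed in all 6 short-fragment libraries and 7 of them in all 6 long-fragment libraries. Lgr5 was missing from the long-fragment library of control mouse 1. Over every gene listed, the mean level of a library was 16.8% to 19.4% in induced and 4.53% to 5.34% in control mice in the short fraction, and 19.5% to 22.0% in induced and 5.76% to 6.52% in control mice in the long fraction. Induced mouse 3 had the highest mean in each fraction. The targeted gene cannot be checked from these files, since they hold methylation and not the amount of Dnmt3b. Genes that mark epithelium were uneven: Epcam and Cdx2 had means under 1% in both groups and fractions, while Cldn4 was at 64.2% in induced and 13.7% in control mice in the short fraction and Krt18 at 30.2% in induced and 22.8% in control mice in the long fraction.

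The promoter of 4 of the listed genes is shown, chosen for their differing results: the closely grouped levels of Ephb3 and Ephb2, the uneven values of Ascl2 and the flat values of Lrig1. A link between sequence and level was not tested. The promoter of Cd44 is shown as that of the gene with no value. Lgr5, Smoc2 and Slc12a2 had no window among those used here. The windows run from 250 bases before to 50 bases after the start of the gene in RefSeq (build GRCm38.p6), 5′ to 3′ on the gene's strand, and capitals mark CCGG, the sequence MspI cuts. Neither the promoter window nor the build behind the deposited levels is given in the sources used here, so a level may rest on CpGs outside these windows.
Ephb3, chr16:21204545-21204844, plus strand: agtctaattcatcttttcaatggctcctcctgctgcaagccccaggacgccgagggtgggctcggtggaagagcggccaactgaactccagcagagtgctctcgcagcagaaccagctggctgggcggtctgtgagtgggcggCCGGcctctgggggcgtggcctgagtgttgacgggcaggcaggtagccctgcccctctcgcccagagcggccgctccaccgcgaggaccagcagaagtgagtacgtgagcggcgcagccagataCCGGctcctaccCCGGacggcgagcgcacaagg
Ephb2, chr4:136835963-136836262, minus strand: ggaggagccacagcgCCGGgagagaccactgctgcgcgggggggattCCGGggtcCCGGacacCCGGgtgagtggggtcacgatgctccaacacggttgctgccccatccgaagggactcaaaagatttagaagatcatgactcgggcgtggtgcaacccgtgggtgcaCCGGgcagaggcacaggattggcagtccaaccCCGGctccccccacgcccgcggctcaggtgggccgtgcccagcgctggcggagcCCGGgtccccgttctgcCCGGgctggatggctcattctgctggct
Ascl2, chr7:142969215-142969514, minus strand: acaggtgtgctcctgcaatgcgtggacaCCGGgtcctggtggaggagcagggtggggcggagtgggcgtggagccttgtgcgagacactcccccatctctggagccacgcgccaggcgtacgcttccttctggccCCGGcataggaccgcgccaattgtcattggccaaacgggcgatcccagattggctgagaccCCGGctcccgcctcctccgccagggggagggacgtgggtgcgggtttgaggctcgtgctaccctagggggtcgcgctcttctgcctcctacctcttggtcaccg
Lrig1, chr6:94700096-94700395, minus strand: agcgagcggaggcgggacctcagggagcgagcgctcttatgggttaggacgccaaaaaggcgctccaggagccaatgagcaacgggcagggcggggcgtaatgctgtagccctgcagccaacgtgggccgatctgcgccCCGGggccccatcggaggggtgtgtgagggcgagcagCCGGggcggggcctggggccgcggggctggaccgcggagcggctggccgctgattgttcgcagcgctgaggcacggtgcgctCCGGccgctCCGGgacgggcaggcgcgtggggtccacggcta
Cd44, chr2:102901616-102901915, minus strand: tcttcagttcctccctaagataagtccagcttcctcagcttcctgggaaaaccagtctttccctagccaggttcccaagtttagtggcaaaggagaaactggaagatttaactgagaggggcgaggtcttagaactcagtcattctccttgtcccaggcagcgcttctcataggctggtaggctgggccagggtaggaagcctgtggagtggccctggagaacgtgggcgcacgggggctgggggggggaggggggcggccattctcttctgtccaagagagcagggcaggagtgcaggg

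The window of Ephb2 held 8 CCGG sites and that of Lrig1 held 4. The windows of Ephb3 and Ascl2 held 3 each. None was found in the window of Cd44, and its 6 CpGs compare with 35 in Lrig1, 24 in Ephb2 and 23 each in Ephb3 and Ascl2. CCGG, which reads the same on both strands, occurred in 52.8% of the 32851 windows of the RefSeq table and in 83.2% of the 12147 windows of genes listed in the files. Between neighbouring sites, the window of Ascl2 held fragments of 107 and 61 nt, and those of Ephb2 and Lrig1 held, beside shorter pieces, fragments of 106 and 54 nt and of 82 nt, all within the short band. The window of Ephb3 held one of 124 nt and that of Prom1 one of 161 nt, within the long band. Between its sites the Ephb3 window held no fragment of the short band. Those of Ephb2, Ascl2 and Lrig1 held none of the long band, yet each of these genes was listed in both fractions. Prom1 has 2 starts in the table, whose windows held 10 and 4 CpGs.

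The crypt genes passed the test at about the share of all genes in the short fraction, and none passed in the long fraction. None reached the high levels found elsewhere in the series. The 8 genes had mean short-fraction levels of 0.07% to 5.82% in induced and 0.0267% to 0.69% in control mice. In the fit over all 10027 genes, 2 of the 8, Ephb2 and Ephb3, rose and none fell (limma, adjusted p under 0.05). Of all genes 27.7% passed, 27.6% with a rise and 0.0798% with a fall. At an unadjusted p under 0.05 there were 3 of the 8, against 33.4% of all genes. The median level of the 8 was 1.85% in induced and 0.0983% in control mice, against 0.793% in induced and 0.133% in control mice over all genes tested, and the median difference was 1.61 points, against 0.50 over all genes. Among long fragments none of the 7 genes tested passed (limma), where 23.2% of the 6127 genes tested rose and 0.0163% fell. Ephb3 alone had an unadjusted p under 0.05 (1 of 7), against 30.8% of all genes. Their median long-fragment level was 2.29% in induced and 0.05% in control mice, against 1.47% in induced and 0.07% in control mice over all genes, and the median difference was 0.553 points for the 7 genes and 0.943 over all. Every induced value exceeded every control value for 4 of the 8 in the short fraction (Ascl2, Smoc2, Ephb2 and Ephb3), against 39.5% of all genes, and for 1 of the 7 in the long fraction (Ephb3), against 38.2%. All induced values lay below all control values for no crypt gene, against 0.908% of all genes with short and 0.277% with long fragments. No crypt gene differed by more than 12.6 points, the long-fraction value of Lgr5, which was not among the 6127 genes tested. Differences above 10 points were found in 27.2% of all genes with short and 31.2% with long fragments. Of the crypt genes tested, only Ephb3 in the long fraction exceeded 10 points. Differences above 15 points, a bound above every crypt gene, were found in 24.7% of all genes with short and 27.6% with long fragments. All 8 genes started in the short fraction from a control mean under 1%, and of the 7127 genes tested that did so, 14.8% rose.

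**Figure D1:**
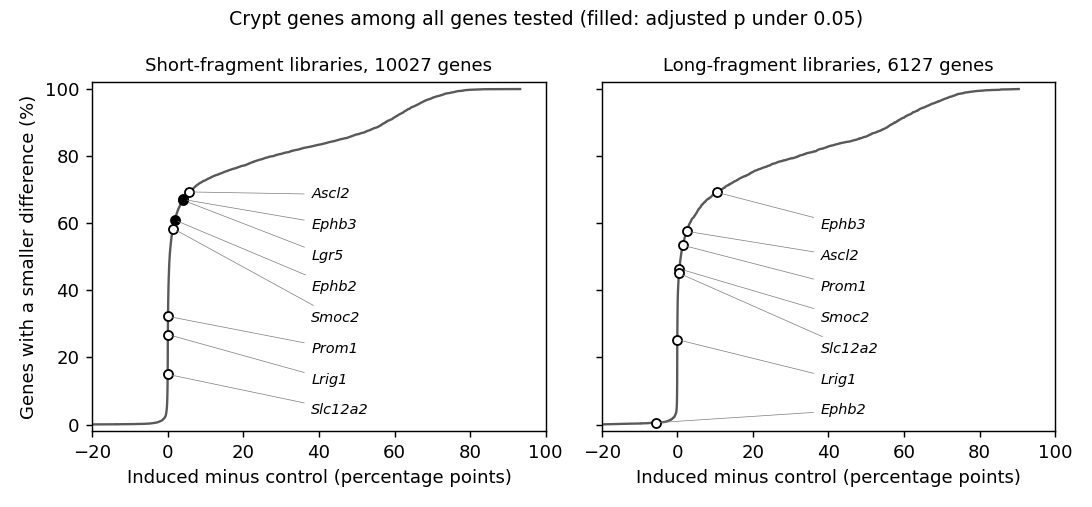
Induced minus control difference (x axis, percentage points) against the share of all tested genes with a smaller difference (y axis, percent), for short (left) and long (right) fragments, with circles for the crypt genes in all 6 libraries of a fraction, filled where they had an adjusted p under 0.05. In the short fraction the crypt genes run from Slc12a2 at 14.97% to Ascl2 at 69.3% of genes; in the long fraction Ephb2 lies at the low end of the curve (-5.49 points, 0.555%) and Ephb3 highest (10.45 points, 69.2%).

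Lgr5 (Gene ID 14160) is the R-spondin receptor by which crypt stem cells are recognised. In the short fraction it was at 1.18%, 8.97% and 3.95% in induced mice 1, 2 and 3, and at 0.68%, 1.39% and 0% in control mice 1, 2 and 3. The groups overlapped, since induced mouse 1 lay below control mouse 2. The difference of 4.01 points (95% interval -1.80 to 9.82) did not pass (limma adjusted p = 0.319). In the long fraction it was at 24.3%, 7.47% and 6.09% in induced mice and at 0% in control mice 2 and 3. All 3 induced values lay above both control values, with induced mouse 1 far above the other two. A fit that admits genes listed in at least 2 libraries per group gave a difference of 12.6 points that did not pass (limma adjusted p = 0.410).

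Ascl2 (Gene ID 17173) encodes the basic helix-loop-helix factor that works with Wnt signals to set the stem cell state. Its short-fraction levels were 0.83%, 12.2% and 4.40% in induced mice 1, 2 and 3 and 0.24%, 0% and 0% in control mice. Each induced value lay above each control value, and the induced values were widely spread. The difference of 5.74 points (95% interval -2.71 to 14.2) did not pass (limma adjusted p = 0.326). In the long fraction the levels were 6.36%, 2.08% and 0% in induced and 0%, 1.03% and 0% in control mice, and the groups overlapped. That difference was 2.47 points (95% interval -2.37 to 7.31, limma adjusted p = 0.503).

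Lgr5 and Ascl2 shared an order among the induced mice that changed with the fragment size. Induced mouse 2 was the highest of the 3 for both genes in the short fraction and induced mouse 1 for both in the long fraction, and neither mouse had the highest mean over all genes. The order was not particular to them, since Ephb2 had the same order in each fraction. Ephb3 was also highest in induced mouse 1 in the long fraction. This order was seen in the data and was not tested. Without induced mouse 2 the short-fraction difference was 1.88 points for Lgr5 and 2.54 for Ascl2, and neither passed. Without induced mouse 1 the long-fraction difference of Ascl2 was 0.697 points.

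**Figure D2:**
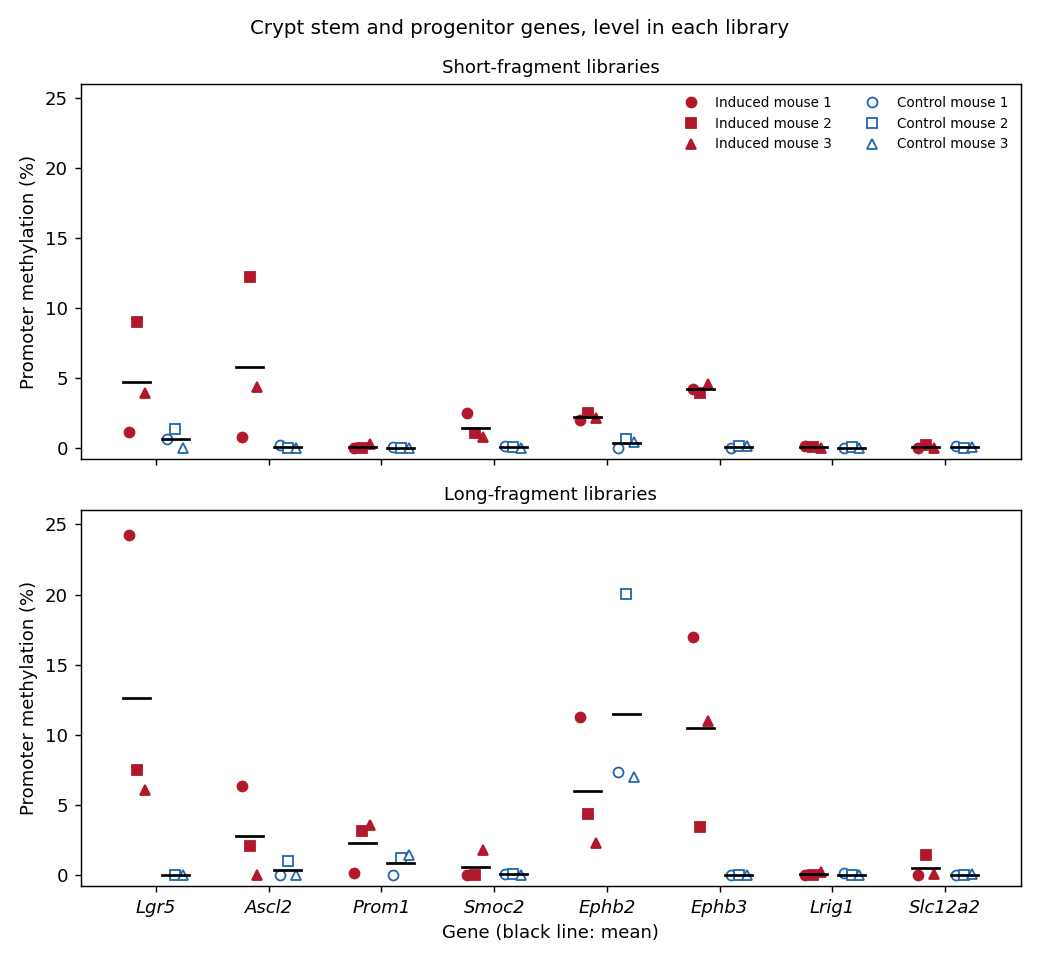
Promoter methylation (y axis, percent) of the 8 listed crypt genes in each library, short fragments above and long fragments below; filled red symbols are induced and open blue symbols control mice, with the mouse number given by the symbol, and black lines are means over n = 3 mice (n = 2 for Lgr5 in long-fragment control libraries). The 3 induced mice lie close together for Ephb2 (1.98% to 2.54%) and Ephb3 (3.97% to 4.55%) in the short fraction. Control means lay above induced means for Ephb2 in the long fraction and, by 0.0267 points, for Slc12a2 in the short fraction.

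Prom1 and Smoc2 mark progenitors and stem cells of the crypt base. Prom1 (Gene ID 19126), a membrane glycoprotein of cell protrusions, was at 0%, 0% and 0.29% in induced and 0.08%, 0% and 0% in control mice in the short fraction. In the long fraction it was at 0.15%, 3.16% and 3.57% in induced and 0%, 1.18% and 1.40% in control mice. The groups overlapped in each fraction, and the differences of 0.07 points (95% interval -0.206 to 0.346) and 1.43 points (95% interval -1.52 to 4.39) did not pass (limma adjusted p = 0.691 and 0.529). Smoc2 (Gene ID 64074) encodes a secreted matrix protein enriched in stem cells. In the short fraction it was at 2.52%, 1.06% and 0.83% in induced and 0.14%, 0.10% and 0.02% in control mice. The groups did not overlap, but the difference of 1.38 points (95% interval 0.048 to 2.72) missed the threshold (limma adjusted p = 0.137). It passed without induced mouse 1, the highest of the 3, when it was 0.858 points (limma adjusted p = 0.00832), and with all libraries on the arcsine scale (limma adjusted p = 0.0277). In the long fraction Smoc2 was at 0%, 0% and 1.81% in induced and 0.10%, 0.05% and 0% in control mice, a difference of 0.553 points that rested on induced mouse 3 (limma adjusted p = 0.591, and -0.05 points without that mouse).

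Ephb2 and Ephb3 are receptor tyrosine kinases, densest at the crypt base, whose repulsion by ephrin-B ligands keeps proliferating and differentiated cells in their places. Ephb3 (Gene ID 13845) was at 4.24%, 3.97% and 4.55% in induced and 0.05%, 0.15% and 0.16% in control mice in the short fraction. The induced values differed from each other by less than 1 point and lay clear of the control values. It rose by 4.13 points (95% interval 3.69 to 4.58, limma adjusted p = 0.000268). The call held whichever library was left out (adjusted p = 0.00034 to 0.0046), but in 1 fit over both fractions, which shares the spread of the long-fragment libraries, it was lost (limma adjusted p = 0.365). For the long fragments Ephb3 was at 16.9%, 3.45% and 10.96% in induced mice and listed at 0% in all 3 control mice. The groups did not overlap, and the induced values were widely spread. The difference of 10.45 points (95% interval 0.534 to 20.4) did not pass (limma adjusted p = 0.142). It passed without induced mouse 2, at 13.95 points (limma adjusted p = 0.0274), in the fit over both fractions (limma adjusted p = 0.0144) and on the arcsine scale (limma adjusted p = 0.0224).

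Ephb2 (Gene ID 13844) was at 1.98%, 2.54% and 2.15% in induced and 0.04%, 0.66% and 0.44% in control mice in the short fraction, without overlap. It rose by 1.84 points (95% interval 1.22 to 2.47, limma adjusted p = 0.0049). The call held whichever library was left out (adjusted p = 0.0122 to 0.0279) and was lost when genes with a mean under 1% were dropped before the fit (limma adjusted p = 0.246) and in the fit over both fractions (limma adjusted p = 0.893). For its long fragments the levels were 11.3%, 4.34% and 2.26% in induced and 7.36%, 20.03% and 6.96% in control mice. The groups overlapped, and control mouse 2 was the highest of all 6. The difference was -5.49 points (95% interval -18.4 to 7.44, limma adjusted p = 0.583), and without control mouse 2 it was -1.20 points. A lower difference was found in 0.555% of the genes tested. Control libraries had 0.38% ± 0.314 with short and 11.45% ± 7.43 with long fragments (SD, n = 3 each), so Ephb2 was the crypt gene with the highest control level in the long fraction.

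**Figure D3:**
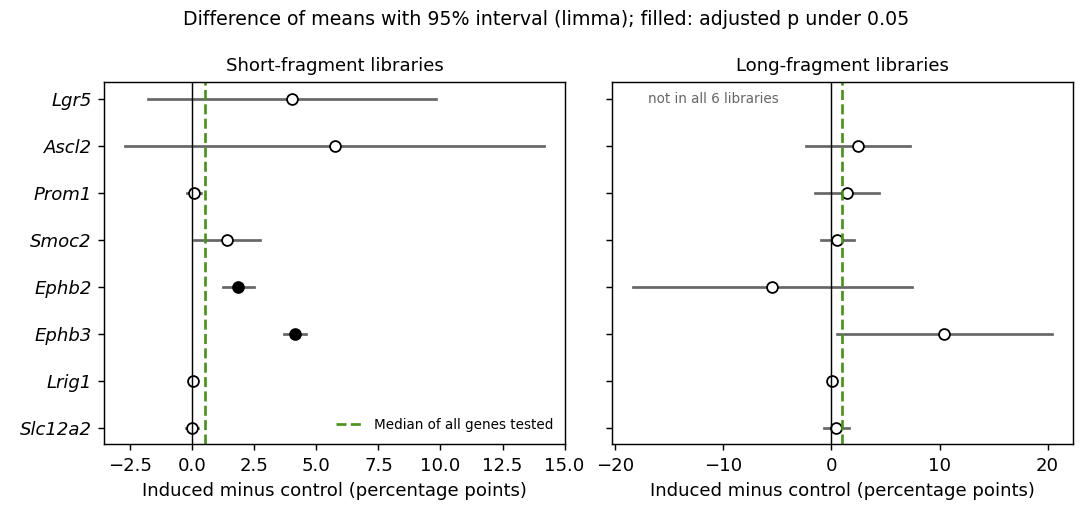
Difference between induced and control means (x axis, percentage points) with its 95% interval from limma, for each crypt gene in short (left) and long (right) fragments; the x axes differ in range, filled points had an adjusted p under 0.05 and the dashed line is the median difference of all genes tested (0.50 and 0.943 points). Ephb2 and Ephb3 have narrow intervals away from 0 in the short fraction, and the interval of Ephb2 spans 0 in the long fraction.

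Lrig1 and Slc12a2 were at 1.40% or less in every library. Lrig1 (Gene ID 16206) encodes a membrane protein that restrains ERBB growth factor receptors and marks a slowly dividing stem cell. It was at 0.13%, 0.06% and 0.02% in induced and 0.02%, 0.11% and 0% in control mice in the short fraction, and at 0%, 0% and 0.19% in induced and 0.11%, 0% and 0% in control mice in the long fraction. The difference was 0.0267 points in each fraction, with 95% intervals of -0.136 to 0.189 and -0.185 to 0.238 points (limma adjusted p = 0.809 and 0.870). Slc12a2 (Gene ID 20496) encodes the basolateral cotransporter of sodium, potassium and chloride, abundant in crypt cells. It was at 0.03%, 0.22% and 0% in induced and 0.19%, 0.02% and 0.12% in control mice in the short fraction. The difference was -0.0267 points (95% interval -0.267 to 0.214, limma adjusted p = 0.881). With long fragments it was at 0%, 1.40% and 0.05% in induced and 0%, 0% and 0.06% in control mice, a difference of 0.463 points (95% interval -0.707 to 1.63, limma adjusted p = 0.584), most of it from induced mouse 2. The intervals of both genes ended below 2 points in each fraction.

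Such flat profiles were common. For Lrig1, 5629 of the other 10026 genes tested in the short fraction (56.1%) and 3130 of the other 6126 in the long fraction (51.1%) lay within 1 point of it on average over the 6 libraries. For Slc12a2 the counts were 5634 and 3134. Smoc2 had 5647 and 3100 such genes, but its groups did not overlap in the short fraction. A limit of 1 point is wide beside its difference of 1.38 points there, so genes within it need not share that separation. Prom1 had 5652 such genes with short and 71 with long fragments, and Ephb2 1012 and none. The profile of Ephb3 was shared by 199 genes with short and 4 with long fragments, that of Ascl2 by 9 and 129, and that of Lgr5 by 23 in the short fraction. No crypt gene had values identical to another gene in every library, as a shared promoter would give.

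The short and long fragments of a promoter were compared in 1 fit with mouse as a random block, over 5309 genes listed in all 12 libraries. None of the 7 crypt genes passed the test of a change that differs between fractions (limma interaction, adjusted p = 0.527 to 1, and none had an unadjusted p under 0.05), where 4.71% of all genes did and 14.5% had an unadjusted p under 0.05. The largest estimates were -7.33 points for Ephb2 (95% interval -18.2 to 3.51) and 6.32 points for Ephb3 (95% interval -1.995 to 14.6), long minus short. Leaving out 1 mouse moved them to between -10.12 and -3.18 points for Ephb2, smallest in size without control mouse 2, and to between 3.07 and 9.68 points for Ephb3, smallest without induced mouse 1. Ephb3 passed without induced mouse 2 (9.68 points, limma adjusted p = 0.0407) and Prom1 without induced mouse 1 (2.39 points, limma adjusted p = 0.0498). Averaged over the 7 genes in all 12 libraries, induced mice 1, 2 and 3 had 1.39%, 2.87% and 1.75% and control mice 0.109%, 0.149% and 0.106% in the short fraction. For the long fragments the averages were 4.96%, 2.06% and 2.69% in induced and 1.08%, 3.18% and 1.20% in control mice. The long-fragment groups overlapped, and in control mouse 2 Ephb2 gave 20.03 of the 22.29 points summed over the 7 genes.

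Relatives of the crypt genes from the same families were read in the same libraries. Of 12 relatives tested in the short fraction 5 rose and none fell, and of 9 in the long fraction 4 rose and none fell (limma, adjusted p under 0.05), where 27.6% and 23.2% of all genes rose. The median differences were 9.44 and 14.6 points. No relative had an unadjusted p under 0.05 with a decrease. Smoc1 (Gene ID 64075), a matrix protein of eye and limb development, was at 78.6%, 78.8% and 95.4% in induced and 6.89%, 11.4% and 11.6% in control mice in the short fraction (limma adjusted p = 0.000911). Ephb1 (Gene ID 270190), an axon guidance receptor, was at 69.6%, 63.95% and 72.5% in induced and 2.27%, 3.36% and 2.05% in control mice (limma adjusted p = 0.000205). For both genes every induced mouse stood far above every control mouse, and both rose in the long fraction too (limma adjusted p = 0.00173 and 0.000968).

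Lgr6 (Gene ID 329252), an R-spondin receptor of skin stem cells, was listed only in the long fraction, at 50.1%, 74.4% and 82.6% in induced and 7.14%, 6.30% and 3.25% in control mice (limma adjusted p = 0.0115). Lgr4, the R-spondin receptor found throughout the crypt, was at 0.663% ± 0.690 in induced and 0.0133% ± 0.0153 in control mice with short fragments (± SD, n = 3 each, with limma adjusted p = 0.352). Slc12a5, the chloride exporter of neurons, rose in each fraction, to 64.7% ± 4.93 in induced against 9.64% ± 3.01 in control mice with short fragments (± SD, n = 3 each, with limma adjusted p = 0.000526). Slc12a4, a potassium and chloride cotransporter, rose to 59.9% ± 6.65 in induced, against 1.04% ± 0.895 in control mice (± SD, n = 3 each, with limma adjusted p = 0.000619). Ephb6, a receptor without kinase activity, rose with short fragments to 23.2% ± 3.70 in induced, against 0.0867% ± 0.0751 in control mice (± SD, n = 3 each, with limma adjusted p = 0.00146). With long fragments Ephb6 was at 23.2%, 8.70% and 11.9% in induced and 0.04%, 0% and 0% in control mice. It did not pass there (limma adjusted p = 0.0814). Slc12a7, Slc12a9, Lrig2 and Lrig3 did not pass, with short-fraction means below 1% in induced and in control mice. Slc12a7 was at 8.33%, 24.2% and 3.70% in induced and 0.20%, 0% and 0% in control mice with long fragments, without overlap, and did not pass there either (limma adjusted p = 0.289).

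The gap between a relative and its crypt gene was compared within each mouse for the 24 pairs of a family and fraction in which both genes were in all 6 libraries. In 9 of 14 short-fraction pairs and 7 of 10 long-fraction pairs the gap of every induced mouse lay above that of every control mouse. For single genes, every induced level lay above every control level in 39.5% of all genes with short and 38.2% with long fragments. The share over all pairs of genes was not determined. Pairs of a family share genes and are not independent. Where the crypt gene lay near 0, a gap was mostly the level of the relative itself. For Smoc1 over Smoc2 the short-fraction gap was 76.1, 77.7 and 94.6 points in induced and 6.75, 11.3 and 11.6 points in control mice. For Ephb1 over Ephb3 in the long fraction it was 58.5, 59.0 and 58.2 points in induced and 0, 1.62 and 2.31 points in control mice. An exact permutation test, two-sided, returned p = 0.10 for each of these pairs, the smallest that 3 against 3 mice allow, and an adjusted p of 0.141 over the 24 pairs. Ephb4 over Ephb3 went the other way in the long fraction, at -14.7, -2.31 and -10.96 points in induced and 0, 0 and 2.98 points in control mice.

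**Figure D4:**
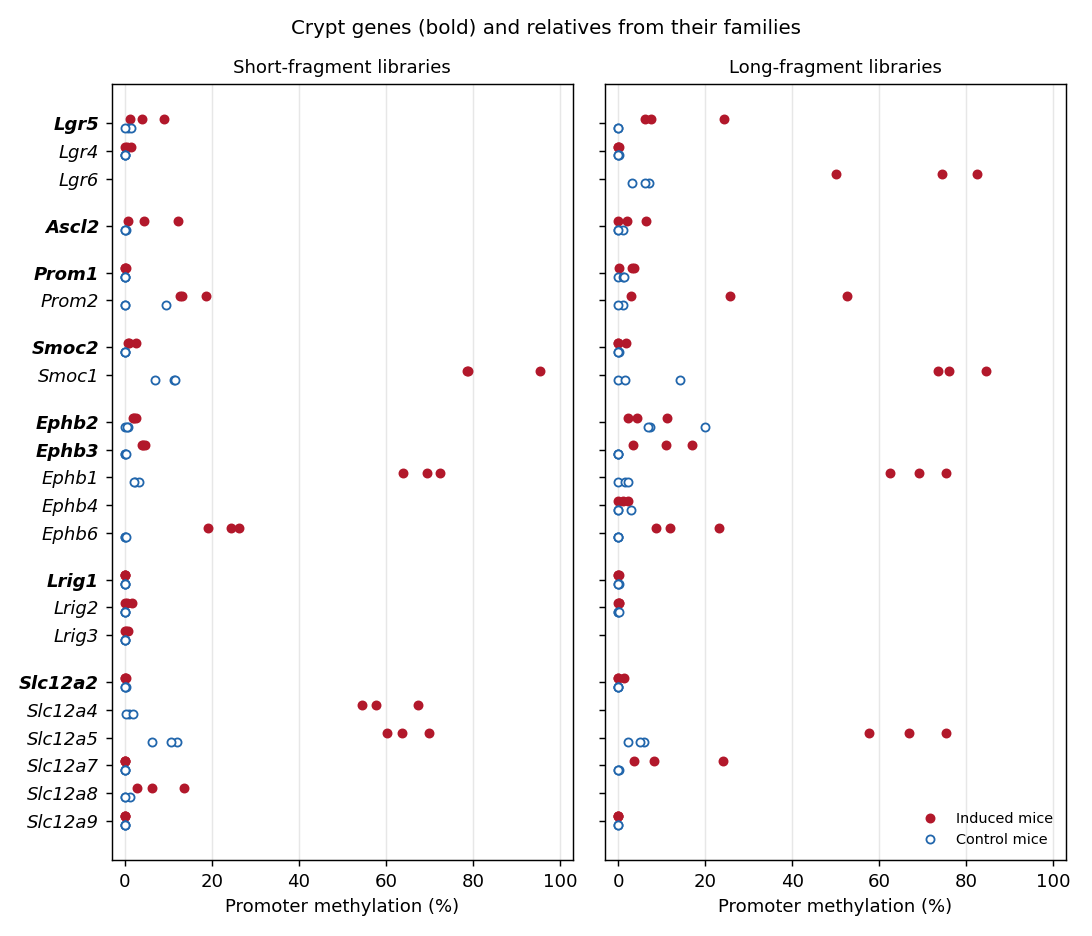
Promoter methylation (x axis, percent) of the crypt genes (bold) and the listed relatives of their families, in short (left) and long (right) fragments; each point is 1 mouse, filled red for induced and open blue for control. Smoc1, Ephb1, Lgr6 and Slc12a5 lie at 50.1% to 95.4% in induced mice, while the bold genes lie at 24.3% or less in every library.

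Other genes of the crypt stem and progenitor programme were divided. Of 25 tested in the short fraction 6 rose and none fell, where 27.6% of all genes rose, and of 18 in the long fraction 6 rose and none fell, where 23.2% rose (no decrease had an unadjusted p under 0.05). The median differences were 0.787 and 2.47 points. The long-fraction count was 3 without control mouse 1 or 2 and 2 without control mouse 3. Igfbp4, a binding protein of insulin-like growth factors, rose to 66.9% ± 11.9 in induced, against 0.823% ± 1.43 in control mice with short fragments (± SD, n = 3 each, with limma adjusted p = 0.00214). Fstl1, a secreted glycoprotein, rose to 67.5% ± 10.4 in induced, against 1.93% ± 0.868 in control mice, and Nrn1, a neuritin, to 74.2% ± 13.7 in induced, against 11.5% ± 1.55 in control mice (± SD, n = 3 each, with limma adjusted p = 0.00145 and 0.00392). Dclk1, which marks tuft cells, rose in the long fraction to 70.1% ± 12.6 in induced, against 13.6% ± 7.74 in control mice (± SD, n = 3 each, with limma adjusted p = 0.0107).

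The remaining short-fraction rises, Msi1, Tert and Cd24a, are named here after their values were seen. Msi1, an RNA-binding protein of neural and intestinal stem cells, rose by 31.7 points (95% interval 29.5 to 33.8) and Tert, the catalytic subunit of telomerase, by 32.3 points (95% interval 27.8 to 36.8), with limma adjusted p = 0.000109 and 0.000437. Cd24a rose by 0.577 points. Bmi1, Sox9, Hes1, Rgmb, Cdx1, Ets2 and Phlda1, likewise chosen afterwards, did not pass, with means below 2.2% in induced and in control mice in either fraction.

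Of the Wnt and R-spondin genes tested, 13 of 29 in the short fraction rose and none fell, with a median difference of 14.95 points, and 6 of 18 in the long fraction rose and none fell, with a median of 10.6 points, where 27.6% and 23.2% of all genes rose. No decrease had an unadjusted p under 0.05, and whether these genes differ from the crypt genes as a group was not tested. Wnt3, a ligand that sustains intestinal stem cells, rose to 72.6% ± 11.9 in induced, against 0.607% ± 0.680 in control mice with short fragments (± SD, n = 3 each, with limma adjusted p = 0.00163). Wnt9b rose to 60.7% ± 9.54 in induced mice and was listed at 0% in all 3 control mice (SD, n = 3, limma adjusted p = 0.00139). Rspo4, an R-spondin, rose to 54.0% ± 6.51 in induced, against 0.13% ± 0.141 in control mice, and Tcf7l1, a repressive Tcf factor, to 61.7% ± 6.49 in induced, against 0.583% ± 0.638 in control mice (± SD, n = 3 each, with limma adjusted p = 0.000706 and 0.000538). Axin2, the Wnt target that feeds back on the pathway, was at 2.83% ± 0.494 in induced and 2.43% ± 0.222 in control mice (SD, n = 3 each) and did not pass (limma adjusted p = 0.478). Other Wnt targets and factors rose in the short fraction. Sp5 rose to 59.0% in induced, against 1.06% in control mice, and Lef1 to 29.8%, against 0.523% (limma adjusted p = 0.000109 and 0.00434). Nkd1 rose to 18.9%, against 0.86% (limma adjusted p = 0.000599). Tcf7, Fzd5, Fzd2, Rspo1, Rspo2 and Rspo3 rose too. With long fragments Lef1 rose, and Sp5 and Nkd1 did not pass. Myc, Ccnd1, Tcf7l2, Ctnnb1 and Znrf3, chosen afterwards, did not pass, with short-fraction means below 0.4% in induced and in control mice. Their long-fragment levels were less even. Ctnnb1 was at 14.6%, 14.3% and 7.08% in induced and 0%, 9.21% and 1.12% in control mice (limma adjusted p = 0.214). Znrf3 was at 4.26% and 8.35% in induced mice 1 and 3 and at 0% in all 3 control mice, and was not listed for induced mouse 2. Ccnd1 reached 4.47% in induced mouse 2 and was at 0% in all 3 control mice (limma adjusted p = 0.576), and Myc and Tcf7l2 were at 0.12% or less throughout.

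Ligands and partners of the crypt genes were measured as well. In the short fraction 6 of 16 rose and none fell, and in the long fraction 3 of 9 rose and none fell (limma, adjusted p under 0.05), where 27.6% and 23.2% of all genes rose, with median differences of 0.958 and 0.97 points and no decrease at an unadjusted p under 0.05. Of the ephrin-B ligands that EphB receptors read, Efnb2 was at 1.37% ± 0.450 in induced and 0.35% ± 0.521 in control mice (± SD, n = 3 each, with limma adjusted p = 0.145), while Efnb3 rose to 91.4% ± 6.88 in induced, against 19.4% ± 3.54 in control mice (± SD, n = 3 each, with limma adjusted p = 0.000545). Efnb1 lies on the X chromosome and varied between mice, with 56.7%, 46.2% and 44.6% in induced and 36.3%, 0.08% and 39.7% in control mice. Control mouse 2 was the low one, as it was for the X-linked gene Msn, at 1.93% against 39.7% and 44.3% in the other control mice. Efna5 and Rdx, a linker of membrane to actin, rose in each fraction, with short-fraction means of 71.4% and 72.5% in induced and 2.46% and 0.903% in control mice. Other receptors and kinases of this list, chosen afterwards, were divided in the short fraction. Ret rose to 23.0% in induced, against 0.583% in control mice (limma adjusted p = 0.00987). Wnk4 rose to 1.79%, against 0% (limma adjusted p = 0.00398), and the linker Ezr to 0.223%, against 0.00667% (limma adjusted p = 0.0374). Met and Wnk1 did not pass. Egfr, Erbb2 and Erbb3, receptors that Lrig1 restrains, and Stk39, a kinase that acts on Slc12a2, did not pass, with short-fraction means below 1% in induced and in control mice. With long fragments none of the 4 was in all 6 libraries and none was tested, Erbb3 being listed at 42.9% and 25.0% in induced mice 2 and 3 and in no control mouse and Egfr at 0.32%, 5.49% and 0% in induced mice and 0.04% and 0% in control mice 2 and 3.

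Markers of differentiated and foreign cells were set beside these values, and their counts are to be read against the 27.6% of all genes that rose in the short and the 23.2% in the long fraction. Of 18 names for differentiated colonocytes 4 were listed and 3 tested in the short fraction, of which Slc9a3 rose, and it lost its call without induced mouse 3 or any 1 control mouse. The secretory genes Chga and Neurog3 rose in the short fraction (2 of 4 tested), and 4 of 5 rose in the long fraction. Among epithelial identity genes 2 of 8 rose in the short fraction, Cldn4 and Ovol1, and the count was 1 without control mouse 1 or 3. With long fragments none of 9 passed and none had an unadjusted p under 0.05 (limma), and 1 passed without control mouse 3. Of the stromal, muscle and endothelial markers, 7 of 8 tested rose with short and 3 of 3 with long fragments. The long-fraction count was 0 without induced mouse 2 or control mouse 2 or 3, and 1 without control mouse 1. Their summed short-fraction level was 458 to 542 points in induced and 54.3 to 64.3 points in control mice over the 8 genes. Of 20 immune markers 1 was tested, Lck, at 0.34% or less in induced and 1.11% or less in control mice. Methylation of a marker's promoter does not count cells of that type, and the part of other cells in the levels of the crypt genes was not tested.

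CpG content gave a further background. Among genes tested in the short fraction whose RefSeq window held 20 to 29 CpGs, as those of Ephb2, Ephb3 and Ascl2 do, 22.6% rose, and 23.8% did with 30 or more, as in Lrig1. With 10 to 19 CpGs 29.4% rose, and with fewer than 10 it was 44.0%. Among long fragments the shares were 19.6%, 18.7%, 26.4% and 35.4% in the same order. Tested genes without a RefSeq window in the table used were in none of these classes.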

How the data were processed

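MspI-digested colon epithelial DNA of 3 induced and 3 control mice was sequenced as short- and long-fragment libraries, per the labels' protocols. Per the file headers, each deposited table gives the mean CpG methylation fraction of genes and of their RefSeq promoters. The sources used here do not give the aligner, build, promoter window or coverage filter. Coverage is unknown, so no counting interval can be given and a listed 0% can come from few reads. Hydroxymethylcytosine also reads as methylation. Fractions were converted to percent, and genes were matched by NCBI Gene ID to RefSeq (GRCm38.p6), which held 99.82% of them. Genes with a value in all 6 libraries of a fraction were fitted with limma 3.58.1 (lmFit, eBayes, R 4.3.3) on percent levels, with Benjamini-Hochberg adjustment over 10027 short-fraction or 6127 long-fraction genes and a threshold of 0.05. An adjusted p of a gene is from this limma fit unless another is named. The change was compared between fractions as an interaction, blocking on mouse (consensus correlation 0.0674), since both libraries of a mouse carry its number; their deviations from group means had correlations of 0.0559 to 0.613. The steps were tested on simulated levels with shifts much larger than the short-fraction rises of Ephb2 and Ephb3. That test does not bear on differences of a few points. Alternatives covered the gene filter, a filter on low values (mean of at least 1%), an arcsine scale, the variance prior, a replicate block, promoter values, a fit over both fractions and leaving out each library. Named genes were the crypt genes, their relatives and up to 4 genes per further list with the largest differences; genes outside this rule, such as Axin2, Efnb1, Efnb2, Egfr, Epcam and Cdx2, were chosen after their values were seen. The genes and lists were chosen with earlier results of these data known. Some relatives of the crypt genes are not reported here.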

Additional observations from a re-analysis of the deposited data

How the results depend on the processing

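Between induced and control mice, Ephb3 kept its short-fraction call under every alternative run except the single fit over both fractions, and Ephb2 under every one except that fit and the filter on low values. The count of crypt genes called in the short fraction was 2 with all libraries, 1 with that filter, 3 on the arcsine scale (Smoc2 gained), 0 in the fit over both fractions and 2 to 3 when 1 library was left out. In the long fraction it was 0, then 1 on the arcsine scale and 1 in the fit over both fractions, each time Ephb3, and 0 to 1 when 1 library was left out. For the change between fractions it was 0, and 0 to 1 without 1 mouse. Over all genes, the short-fraction count was 2773 with all libraries, 2229 to 3061 without 1 library and 1575 in the fit over both fractions, which tests 5309 genes. The long-fraction count was 1422, 904 to 1560 without 1 library (904 without control mouse 3, 910 without control mouse 2, 958 without control mouse 1) and 652 with a replicate block. The interaction count was 250, and 131 to 458 without 1 mouse (138, 131 and 159 without control mouse 1, 2 and 3, and 458, 397 and 427 without induced mouse 1, 2 and 3); the cause was not tested. Control and induced mice of the same number are different animals, and deviations of their libraries had correlations of -0.0499 to 0.0736, so the replicate block pairs nothing; it left the short-fraction crypt calls as they were (2) and moved the short-fraction count to 2114.

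Differences near 0 changed sign when 1 library was left out: Lrig1 ranged from -0.00333 to 0.06 (short) and from -0.0367 to 0.0633 points (long), Prom1 from -0.0267 to 0.118 (short), Slc12a2 from -0.095 to 0.015 (short), Smoc2 from -0.05 to 0.855 (long), and the interaction of Ascl2 from -7.53 to 0.302 points. None of these passed with either sign. Reads per level are unknown, so how far depth limits the 0% values cannot be stated.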

Other observations

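Genes beside the crypt genes on the chromosome were the nearest listed gene on each side in RefSeq order, chosen after the data were seen. Igf2, Chrd and Fbn2 rose with short fragments and Igf2, Fbn2 and Wdr27 with long fragments, and the other neighbours tested did not pass. Of all genes 27.6% rose with short and 23.2% with long fragments. Whether the neighbours differ from these shares was not tested. A few rose strongly. Igf2, the imprinted growth factor gene next to Ascl2 among listed genes, rose to 65.8% ± 8.93 in induced, against 1.02% ± 1.45 in control mice in the short fraction, and to 70.4% ± 5.74 in induced, against 12.9% ± 5.12 in control mice in the long fraction (± SD, n = 3 each, with limma adjusted p = 0.000997 and 0.00174). On the other side of Ascl2, Cd81 was at 0.46% ± 0.416 in induced and 0.227% ± 0.342 in control mice. Chrd, the secreted BMP antagonist chordin and neighbour of Ephb3, rose to 47.4% ± 6.98 in induced, against 0.40% ± 0.197 in control mice with short fragments (± SD, n = 3 each, with limma adjusted p = 0.00118). Fbn2, a fibrillin gene next to Slc12a2, rose to 66.0% ± 15.7 in induced, against 3.00% ± 1.70 in control mice with short fragments (± SD, n = 3 each, with limma adjusted p = 0.00615), and with long fragments to 68.0% ± 8.23 in induced, against 1.80% ± 2.31 in control mice (± SD, n = 3 each, with limma adjusted p = 0.00164).

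The neighbours of Prom1 (Fbxl5 and Tapt1), Lrig1 (Slc25a26 and Kbtbd8) and the listed neighbour of Lgr5 with values in all libraries (Zfc3h1) did not pass, with induced and control means below 1% among short fragments. Dact2 (beside Smoc2), Aof2 (beside Ephb2), Prrc1 (beside Slc12a2) and Vps8 (beside Ephb3) did not pass in either fraction. Wdr27, next to Smoc2, rose in the long fraction to 7.42% ± 3.19 in induced mice, with 0% in all 3 control mice (SD, n = 3, limma adjusted p = 0.0468), and was at 0.60% ± 0.572 in induced and 0.0333% ± 0.0577 in control mice in the short fraction (limma adjusted p = 0.331).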
